A study of Mus musculus with 6 samples.

Results

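Natural killer (NK) cells are held in check by enzymes that switch activating signals off again, and 8 genes for such enzymes are described here in splenic NK cells with and without Rroid, a long noncoding RNA that lies near Id2. The genes were chosen by name, with earlier results of these data known. They are the tyrosine phosphatase genes Ptprc, Ptpn6, Ptpn11 and Ptpn22, the lipid phosphatase gene Inpp5d, the kinase gene Csk, and the ubiquitin ligase genes Cbl and Cblb. Each name matched 1 row of the count files, which gives 8 of 37991 genes, and all 8 were among the 11724 genes with enough reads to be tested. Csk is neither a phosphatase nor a ligase and belongs to the group by its restraining role.

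The cells were NK cells from mouse spleen, positive for both CD27 and CD11b, a pair of surface proteins carried together at an intermediate stage of maturation. RNA was sequenced from 3 libraries of Rroid deficient mice and 3 libraries of wildtype mice, all on the C57BL6 background; the labels give no age or sex and do not say how the deficient allele was made. Separate animals behind the libraries are not stated either, and p-values therefore cover the spread among these 6 samples alone, which could be technical.

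Activating receptors of NK cells signal through Src family kinases, which phosphorylate adaptors and so engage Syk and Zap70, Vav1, phospholipase C gamma and phosphoinositide kinase. Inhibitory receptors carry tyrosine motifs in their tails that, once phosphorylated, draw in the phosphatases SHP-1 (Ptpn6), SHP-2 (Ptpn11) and SHIP-1 (Inpp5d). Csk and PEP (Ptpn22) keep Src family kinases inactive, the Cbl ligases mark signalling proteins for degradation, and CD45 (Ptprc) acts in both directions because it also removes the inhibitory phosphate from Src family kinases.

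None of the 8 genes passed the test between genotypes (edgeR's quasi-likelihood test, adjusted p under 0.05 over all genes tested), where 0.0171% of all genes passed. At an unadjusted p under 0.05 the edgeR test gave 2 members, Ptprc and Ptpn6, both higher in deficient cells; 2.76% of all genes reached that p as higher and 2.52% as lower. On the same genes, DESeq2 called 0 members and 0.549% of all genes, and limma-voom 0 members and 0.00853% of all genes. With sample quality weights, limma-voom called 1 member, Ptprc, and 0.0682% of all genes. For Ptprc and Ptpn6 all 3 deficient libraries lay above all 3 wildtype libraries, which held for 6.03% of all genes tested. No member had all deficient libraries below, which held for 6.33% of all genes. The other 6 members overlapped between genotypes.

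Levels are given as CPM, the reads of a gene per 1000000 assigned reads after adjusting each library's size by TMM, and fold changes are deficient over wildtype. The label check was Id2, the gene beside Rroid, which had 38.9, 66.7 and 81.2 CPM in deficient libraries 1 to 3 and 468, 338 and 341 CPM in wildtype libraries 1 to 3 (a log2 difference of -2.62, SE 0.30, edgeR adjusted p = 0.0308). Reads assigned to genes numbered 6146465 to 7363793 in deficient libraries and 5823626 to 9216430 in wildtype libraries. Every member had at least 392 reads in every library, so counting error was small beside the differences between libraries. NK cell genes were abundant in both groups, with Ncr1, which encodes NKp46, at 940 ± 61.5 CPM in deficient and 1015 ± 8.66 CPM in wildtype libraries (SD, n = 3 each).

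Ptprc encodes CD45, the large transmembrane tyrosine phosphatase of leukocytes, and was the member with the highest level, 10th of all genes tested by mean CPM. It had 4922, 4703 and 4658 CPM in deficient libraries 1 to 3, against 2978, 3664 and 3664 CPM in wildtype libraries 1 to 3. The lowest deficient library stood above the highest wildtype library, and the deficient libraries lay close together. The means were 4761 ± 141 CPM in deficient and 3436 ± 396 CPM in wildtype cells (SD, n = 3 each), a 1.39-fold difference with a log2 fold change of 0.47 (SE 0.12, 95% interval 0.21 to 0.73). The edgeR unadjusted p was 0.00227, 40th in order among the genes tested, and the adjusted p was 0.645. Only limma-voom with sample quality weights, among the tools tried, called it (log2 fold change 0.38, adjusted p = 0.0438), and its adjusted p over 15 alternative fits ran up to 0.999.

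Ptpn6 encodes SHP-1, the SH2 domain phosphatase recruited by Ly49 and NKG2A receptors in mouse NK cells. Deficient libraries 1 to 3 had 976, 605 and 718 reads, or 141, 98.7 and 99.3 CPM, against 490, 392 and 449 reads, or 73.4, 42.1 and 70.6 CPM, in wildtype libraries 1 to 3. Again no wildtype library reached the lowest deficient one, although library 1 stood above the other deficient libraries and library 2 below the other wildtype ones. The means of 113 ± 24.1 CPM in deficient and 62.0 ± 17.3 CPM in wildtype cells (SD, n = 3 each) gave the largest ratio among the members, 1.82-fold, with a log2 fold change of 0.86 (SE 0.32, 95% interval 0.14 to 1.59). The edgeR unadjusted p was 0.0234 and the adjusted p 0.906. Without deficient library 1 the log2 fold change was 0.67, and without wildtype library 2 it was 0.65, with edgeR unadjusted p of 0.0796 and 0.0997. An antisense gene, Gm20531, overlaps Ptpn6 in the annotation; it had 36, 196 and 46 reads in deficient libraries and 59, 30 and 16 reads in wildtype libraries, and without strand in the kit its reads cannot be told from those of Ptpn6.

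A promoter window each of Ptprc and Ptpn6 is shown because these were the members whose libraries lay apart, and because Id2, the gene called lower, encodes an inhibitor of the E proteins, which bind the E box (CANNTG, a palindrome read alike on both strands). Each window runs from 250 bases before to 50 bases after an annotated start, in RefSeq's build GRCm38.p6, 5′ to 3′ on the strand of the gene, with the E box in capitals. The Ptprc window is chr1:138175256-138175555 and the Ptpn6 window chr6:124738660-124738959, both on the minus strand.
Ptprc: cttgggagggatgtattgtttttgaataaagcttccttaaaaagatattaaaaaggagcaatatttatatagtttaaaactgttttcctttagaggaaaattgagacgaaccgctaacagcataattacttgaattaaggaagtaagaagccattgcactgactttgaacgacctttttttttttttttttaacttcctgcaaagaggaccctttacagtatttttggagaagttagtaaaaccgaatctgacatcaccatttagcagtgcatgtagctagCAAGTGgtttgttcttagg
Ptpn6: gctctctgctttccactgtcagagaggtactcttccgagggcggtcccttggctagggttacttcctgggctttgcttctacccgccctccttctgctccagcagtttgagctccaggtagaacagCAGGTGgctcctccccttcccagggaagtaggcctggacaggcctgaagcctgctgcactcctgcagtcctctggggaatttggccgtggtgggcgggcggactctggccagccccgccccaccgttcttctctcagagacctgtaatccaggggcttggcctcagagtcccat
Each of these windows held 1 E box. RefSeq lists a second, overlapping window for Ptprc, not printed, which held 3. Of all 32851 promoter windows of this length, 72.3% held at least 1, as did 8 of the 11 windows that RefSeq lists for the 8 members. A match to these letters is not a bound site, and binding was not measured here.

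**Figure D1:**
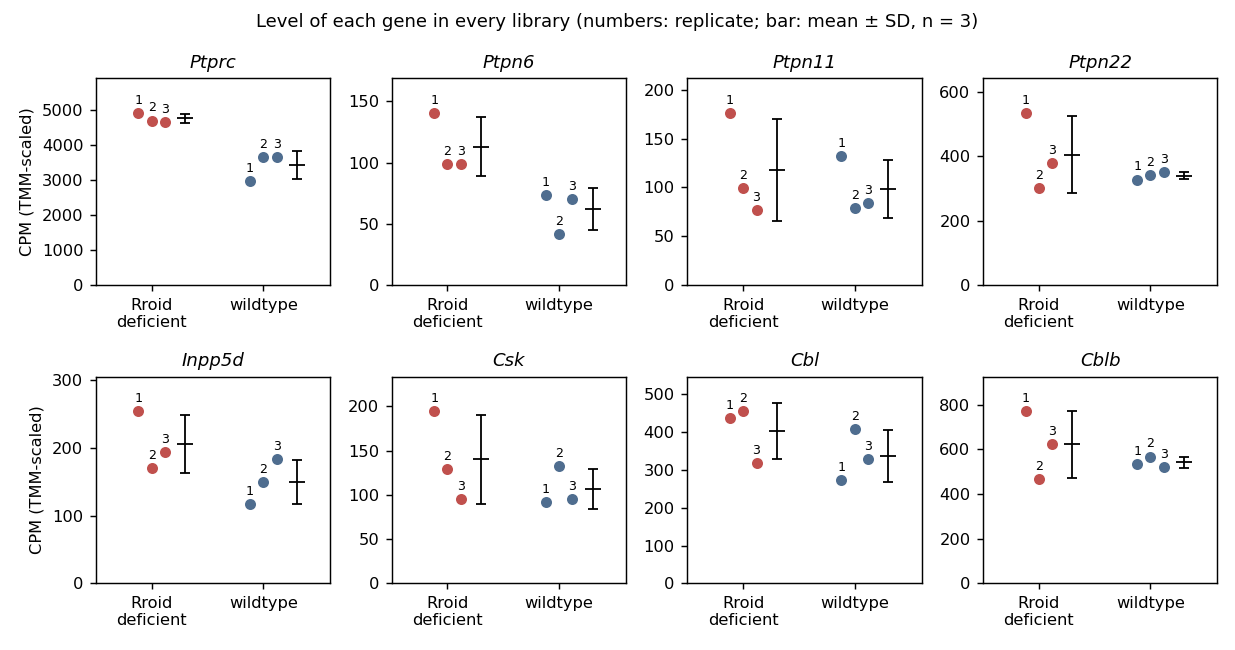
CPM of each of the 8 genes (y axis, linear, from 0) in every library, Rroid deficient in red and wildtype in blue, with the replicate number above each point and the mean ± SD (n = 3) as a bar. Ptprc and Ptpn6 are the panels in which the red and blue points do not overlap; in 7 of 8 panels deficient library 1 is the highest point.

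Ptpn11 encodes SHP-2, a close relative of SHP-1 that also binds inhibitory receptors and is needed for signalling from growth factor and cytokine receptors. It had 176, 99.7 and 76.5 CPM in deficient libraries 1 to 3 and 132, 78.4 and 84.0 CPM in wildtype libraries 1 to 3. Library 1 was the highest of both groups, and the groups overlapped over most of their range. SHP-2 transcripts had a log2 fold change of 0.26 (SE 0.36, 95% interval -0.55 to 1.07, edgeR adjusted p = 0.940), so that neither a rise to about 2-fold nor a smaller fall lay outside the interval. Without deficient library 1 the sign turned, to a log2 fold change of -0.16.

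Ptpn22 encodes PEP, a phosphatase that acts together with Csk on Src family and Syk family kinases in T cells. Its deficient libraries 1 to 3 had 535, 302 and 378 CPM, and its wildtype libraries 1 to 3 had 328, 342 and 351 CPM. The wildtype values were nearly equal, and the deficient values lay on both sides of them. The log2 fold change of 0.25 (SE 0.22, 95% interval -0.24 to 0.75, edgeR adjusted p = 0.931) rested on deficient library 1, without which it was -0.01. Gm15472, annotated within an intron of Ptpn22 on the same strand, had 812, 253 and 577 reads in deficient libraries 1 to 3 and 412, 460 and 292 reads in wildtype libraries 1 to 3, likewise highest in deficient library 1.

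Inpp5d encodes SHIP-1, which removes a phosphate from the lipid that phosphoinositide kinase makes. It had 254, 170 and 194 CPM in deficient libraries 1 to 3, against 117, 149 and 183 CPM in wildtype libraries 1 to 3. The overlap came from deficient library 2, which lay below wildtype library 3. Inpp5d had a log2 fold change of 0.46 (SE 0.25, 95% interval -0.10 to 1.02, edgeR adjusted p = 0.925), close in size to that of Ptprc but with an SE more than double. Without both libraries numbered 1 it was 0.13.

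Csk encodes the kinase that phosphorylates the inhibitory tail tyrosine of Src family kinases. Deficient libraries 1 to 3 had 194, 130 and 95.7 CPM, and wildtype libraries 1 to 3 had 92.0, 133 and 94.9 CPM. Deficient library 1 stood alone, and the other deficient values lay within the wildtype range. Csk had a log2 fold change of 0.39 (SE 0.31, 95% interval -0.30 to 1.09, edgeR adjusted p = 0.925), and 0.07 without deficient library 1.

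The ubiquitin ligase genes overlapped between genotypes as well. Cbl, whose product acts on Vav1 in human NK cells on engagement of inhibitory receptors, had 437, 455 and 319 CPM in deficient libraries 1 to 3 and 273, 408 and 328 CPM in wildtype libraries 1 to 3. Its deficient library 3 lay below wildtype libraries 2 and 3, with a log2 fold change of 0.26 (SE 0.22, 95% interval -0.22 to 0.75, edgeR adjusted p = 0.925). Cblb, whose loss in mice lets NK cells reject tumours more strongly, had 771, 469 and 626 CPM in deficient libraries 1 to 3 and 534, 568 and 522 CPM in wildtype libraries 1 to 3. The deficient values again spread on both sides of nearly equal wildtype values, with a log2 fold change of 0.20 (SE 0.20, 95% interval -0.24 to 0.64, edgeR adjusted p = 0.936). For Cbl and Cblb, as for Ptprc and Ptpn22, the upper bound of the interval is below a 2-fold rise. The lower bound is well above a 2-fold fall for each of them.

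**Figure D2:**
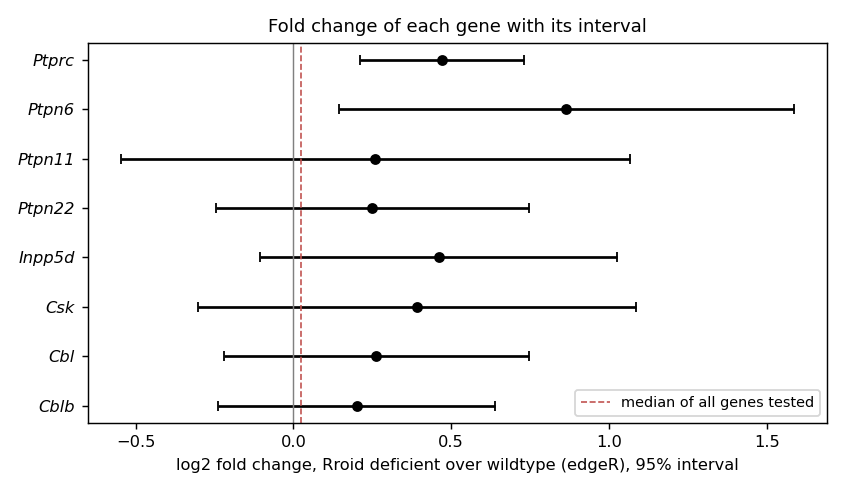
Log2 fold change of each gene, Rroid deficient over wildtype (x axis), from edgeR with its 95% interval; the grey line is 0 and the dashed line the median of all 11724 genes tested, 0.02. The intervals of Ptprc and Ptpn6 lie above 0 and the other 6 include it.

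All 8 members had a positive log2 fold change, from 0.20 to 0.86 with a median of 0.33, while the median over all genes tested was 0.02 and 51.6% of all genes were positive. The signs share libraries and are not 8 separate observations. Deficient library 1 held the highest value of 7 members, Cbl being the exception, and wildtype library 1 held the lowest value of 4, Ptprc, Inpp5d, Csk and Cbl. Among the 2026 genes at the level of the members or above, deficient library 1 was the highest for 31% and wildtype library 1 the lowest for 23.3%. These are also the libraries with the most tested genes at a count of 0, 5.57% in deficient library 1 and 5.63% in wildtype library 1, against 0.23% to 2.43% in the other 4. Without both of them, the log2 fold change was 0.35 for Ptprc and 0.81 for Ptpn6. Ptpn22 was then at -0.03, Csk at -0.02, Cblb at 0.00, Cbl at 0.06, Ptpn11 at 0.11 and Inpp5d at 0.13. Groups that lie apart over all libraries stay apart in fewer of them, save for small changes in scaling. The non-overlap of Ptprc and Ptpn6 in the other 4 libraries is therefore no further support. There, 18.4% of all genes had every deficient library above.

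**Figure D3:**
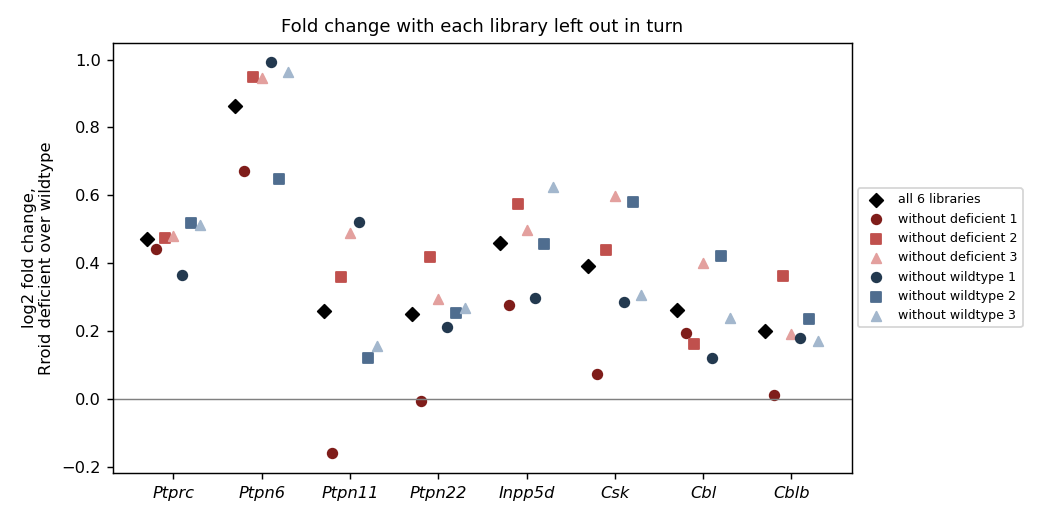
Log2 fold change of each gene, Rroid deficient over wildtype (y axis), with all 6 libraries (black diamonds) and with each library left out in turn (red shades, a deficient library left out; blue shades, a wildtype library). Ptprc stays between 0.37 and 0.52 and Ptpn6 between 0.65 and 0.99, whereas Ptpn11 and Ptpn22 fall below 0 without deficient library 1.

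Some markers of other cells moved with the genotype. CD45, SHP-1, SHIP-1 and the other members are made by most leukocytes, so RNA of other leukocytes would count towards them, and in bulk RNA a change in the share of a cell type and a change in RNA per cell cannot be told apart. Summed T cell markers (12 genes, of which Cd8a and Cd6 were at 0 throughout) were 346 to 451 CPM in deficient and 171 to 266 CPM in wildtype libraries. Within that list Cd3g (63.4 ± 7.44 CPM in deficient and 6.22 ± 1.91 CPM in wildtype libraries), Cd3d (49.2 ± 22.4 and 6.79 ± 1.85) and Trbc2 (111 ± 17.3 and 51.4 ± 10.4) had every deficient library above every wildtype one. Cd3e, which encodes a further chain of the same receptor complex, had 0 reads in every deficient library and 0, 3 and 0 reads in wildtype libraries. Trbc1 (162 ± 26.8 and 139 ± 38.3 CPM) and Trac (6.98 ± 5.995 and 2.26 ± 2.56) overlapped between genotypes. Cd4 and Cd8b1 had 0 reads in every deficient library, and 57, 0, 0 and 37, 0, 0 reads in wildtype libraries 1 to 3. Themis had 0, 1 and 0 reads in deficient libraries and 0 in wildtype ones, and Cd5 had 2, 0, 1 and 0, 4, 0 reads. Summed B cell markers (8 genes, with Pax5 at 0) were 330 to 614 CPM in deficient and 229 to 341 CPM in wildtype libraries, overlapping between genotypes and mostly from Ighm (442 ± 147 and 268 ± 55.7 CPM). Monocyte and macrophage markers (9 genes, Cd14, Fcgr1 and C1qa at 0) summed to 23.7 to 30.4 CPM in deficient and 5.24 to 12.9 CPM in wildtype libraries, with Cd68 at 23.7 ± 5.86 CPM in deficient and 4.87 ± 5.57 CPM in wildtype libraries. Dendritic cell markers (2.88 to 19.7 CPM in deficient and 10.4 to 28.6 CPM in wildtype libraries) and neutrophil markers (0 to 0.653 and 0 to 0.430 CPM) overlapped, and erythroid markers were lower, at 0 to 4.15 CPM in deficient and 4.62 to 17.5 CPM in wildtype libraries. The 12 NK cell markers summed to 10937 to 11824 CPM in deficient and 12984 to 15381 CPM in wildtype libraries, with Gzma, the granzyme A gene, at 2560 ± 217 and 4501 ± 866 CPM. Gzma, Gzmb, Klrb1c, Klrk1 and Klrd1 had every deficient library below every wildtype one, and the other NK cell markers overlapped. Among these, Tbx21 (180 and 130 CPM), Itga2 (495 and 391) and Il2rb (2915 and 2712) had higher means in deficient than in wildtype libraries. The part of these differences in the levels of Ptprc and Ptpn6 was not tested.

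Levels were compared between the members per kilobase of exon, since longer transcripts give more reads. Ptprc was the highest in every library, at 260 ± 7.70 CPM per kb in deficient and 188 ± 21.6 CPM per kb in wildtype cells (SD, n = 3 each). Cblb (59.4 ± 14.4 and 51.7 ± 2.29 CPM per kb, deficient and wildtype) and Ptpn22 (59.8 ± 17.6 and 50.3 ± 1.73) came next and were within their spread of each other, changing places between libraries. Csk (37.4 ± 13.4 and 28.5 ± 6.13 CPM per kb), Ptpn6 (40.3 ± 8.59 and 22.1 ± 6.18), Cbl (32.7 ± 5.996 and 27.3 ± 5.50) and Inpp5d (27.1 ± 5.72 and 19.7 ± 4.36) followed, and neighbours among them did not differ beyond their spread. Ptpn11 was the lowest in 5 of 6 libraries, with 15.7 ± 6.97 CPM per kb in deficient and 13.1 ± 3.93 CPM per kb in wildtype cells. Exon lengths came from another build than the counts; with the longest annotated transcript as the length, Ptpn22 stood above Cblb in every library, while Ptprc stayed first and Ptpn11 last.

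**Figure D4:**
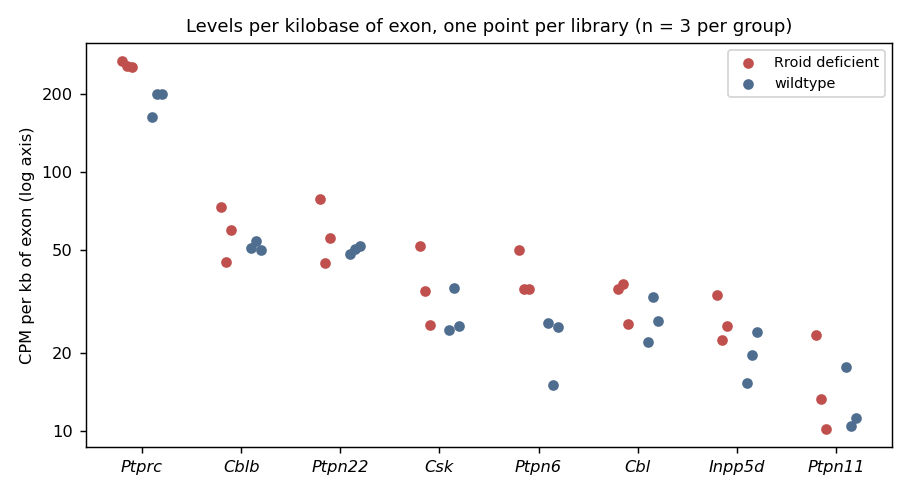
CPM per kb of exon (y axis, log scale) of each gene in every library, ordered by the mean over 6 libraries, Rroid deficient in red left of wildtype in blue. Ptprc stands above all others in every library, and the points of Csk, Ptpn6, Cbl and Inpp5d overlap.

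The genes of SHP-1 and SHP-2, related phosphatases that both bind inhibitory receptors, were set against each other within libraries. The scaling of the library drops out in such a ratio. Ptpn6 exceeded Ptpn11 per kilobase in every library, by 2.13, 2.65 and 3.47 times in deficient libraries 1 to 3 and by 1.49, 1.44 and 2.25 times in wildtype libraries 1 to 3. The groups overlapped, since wildtype library 3 lay above deficient library 1. The level of Cblb over Cbl per kilobase was 2.08, 1.22 and 2.31 in deficient libraries and 2.30, 1.64 and 1.87 in wildtype libraries, with no separation. These ratios are given as a description, with no test.

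The members also differed in how steady they were. Over the replicates within groups, the SD of log2 CPM was 0.13 for Ptprc, below the median of 0.19 for the 200 genes nearest to it in level. It was 0.52 for Ptpn11, above the 0.36 of genes at its level. For the other 6 it lay between 0.26 and 0.42, against medians of 0.20 to 0.41 at their own levels.

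Genes that enclose the members in the pathway were read from lists. Among 41 tested genes for further phosphatases, ligases and adaptors that restrain signalling, edgeR called 0, as did DESeq2 and limma-voom, and at an unadjusted p under 0.05 edgeR gave 2 higher and 1 lower (2.76% and 2.52% of all genes). Their median log2 fold change was 0.04. Dgka, a diacylglycerol kinase gene that dampens Ras signalling in T cells, had 182, 228 and 188 CPM in deficient libraries and 70.4, 143 and 80.4 CPM in wildtype libraries (a log2 difference of 1.02, SE 0.30, edgeR adjusted p = 0.895). Nedd4, which encodes a ubiquitin ligase, had 130, 108 and 87.1 CPM in deficient libraries and 286, 166 and 154 CPM in wildtype libraries (a log2 difference of -0.89, SE 0.30, edgeR adjusted p = 0.895). Both had groups that did not overlap, as had 7 of the 41 genes (5 above and 2 below), where 12.4% of all genes did.

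Among 47 tested genes for kinases, adaptors and effectors on which the members act, edgeR, DESeq2 and limma-voom called 0, with 3 higher and 1 lower at an unadjusted p under 0.05 in edgeR and a median log2 fold change of 0.02. Tec, a kinase gene with the smallest p of this list, had 50.9, 79.6 and 76.1 CPM in deficient and 21.0, 24.9 and 34.6 CPM in wildtype libraries (a log2 difference of 1.36, SE 0.39, edgeR adjusted p = 0.895). In 4 of the 47 the groups did not overlap (2 above and 2 below), where 12.4% of all genes did, and the shares of all genes at that unadjusted p were 2.76% higher and 2.52% lower.

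Among 21 tested genes for receptors whose tails can recruit SHP-1, SHP-2 or SHIP-1, edgeR called 0. At an unadjusted p under 0.05 edgeR gave 1 higher and 3 lower (2.76% and 2.52% of all genes). The list holds inhibitory receptors together with the SLAM family genes Cd244a, Ly9, Slamf6, Slamf7 and Cd84, whose products are not solely inhibitory. Its median log2 fold change was 0.35, the value of Slamf7. DESeq2, which called 0.549% of all genes, called 1, Klrb1b, as did edgeR without a filter on low counts, a fit that called 0.495% of its genes, and limma-voom called 0. Klrb1b, which encodes the inhibitory NKR-P1B receptor, had 40.1, 40.1 and 57.1 CPM in deficient libraries and 93.8, 171 and 124.6 CPM in wildtype libraries (a log2 difference of -1.50, SE 0.33, edgeR adjusted p = 0.569). Klrg1, an inhibitory receptor gene of mature NK cells, had 27.7, 49.6 and 47.0 CPM in deficient libraries and 145, 77.2 and 86.8 CPM in wildtype libraries (a log2 difference of -1.31, SE 0.38, edgeR adjusted p = 0.895). Both genes were lower in every deficient library than in any wildtype library. Of the 21 genes, 6 had groups that did not overlap, 3 above (Klra6, Cd244a and Cd84) and 3 below (Klra9 beside these), where 12.4% of all genes did. Ly49 genes in this list are related in sequence, so the division of reads among them can be uncertain, and it was not checked.

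For each member the gene of most similar course over the 6 libraries was sought among 5775 genes at a mean of at least 20 CPM, by the library in which centred log2 CPM differed most. For Ptprc it was Zdhhc20, within 0.09 log2 units in every library, for Inpp5d Rc3h1 (0.06), for Cbl Ywhaq (0.09), for Ptpn22 Chd7 and for Cblb Sfr1 (0.10 each), for Csk Ecd (0.13), for Ptpn6 Ivns1abp (0.17) and for Ptpn11 Foxp1 (0.18). A likeness within 0.2 log2 units was common for Ptprc, Ptpn22 and Cblb, with 34, 36 and 35 genes, and held for 1 gene for Ptpn6. With 6 libraries and so many genes this is a description only.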

How the data were processed

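The authors deposited raw counts, whole numbers of reads per Ensembl gene, in 1 table per library with 5 closing rows that name no gene. Those rows held 80.0% to 84.4% of the reads listed and were left out. Amplification (Nugen Ovation, a kit that does not keep strand) and single-read sequencing of 100 bases are given per the labels' protocols; Trimmomatic 0.33, TopHat2 2.1.0, HTSeq 0.6.1, DESeq2 and the builds NCBIM37 and mm9 are named per the submitters' processing notes, while the strand setting of the counting was not stated there. Symbols came from an annotation of GRCm38 and were found for 32919 genes; exon lengths came from the same annotation.

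Genotypes were compared with edgeR 4.0.16 in R 4.3.3 (filterByExpr, TMM, quasi-likelihood fit on genotype, Benjamini-Hochberg adjustment over 11724 genes, threshold 0.05), checked on simulated counts. The simulated counts had a smaller spread between replicates than the common spread of these data, and larger fold changes than the members. That check therefore does not show how the test performs for changes of the members' size. SE were derived from each F statistic, and 95% intervals from the SE. The upper limit for a gene with no reads was 3 counts, or 0.322 to 0.489 CPM, for counting error alone. Every pair of libraries differed by more than sampling noise (lowest chi-square per degree of freedom 19.2). Alternatives used DESeq2 1.42.0, limma 3.58.1, other scalings and filters, left-out libraries and a replicate block. Named were the members, Id2, 2 genes of smallest p per list and 1 most similar gene per member, except items that are not reported here; the single marker genes, receptors with non-overlapping groups, Gm20531 and Gm15472 were named after their values were seen. Members and lists were chosen with earlier results of these data known. Figures were drawn with matplotlib 3.10.9.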

Additional observations from a re-analysis of the deposited data

How the results depend on the processing

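Against 2 genes called over all 11724, DESeq2 called 64, limma-voom 1, limma-voom with quality weights 8 and edgeR without a filter on low counts 98; edgeR called 0 without both libraries numbered 1 and 0 to 0 when any 1 library was left out. Fewer samples enter those last fits. Of the members, 0 were called except 1, Ptprc, with quality weights. The receptor list had 1 call with DESeq2 and 1 without the filter. With each library left out, the members and the lists had 0 to 0 calls. With each library left out, the log2 fold change ran from -0.1604 to 0.5219 for Ptpn11 and from -0.00705 to 0.4184 for Ptpn22, both below 0 without deficient library 1. Without both libraries numbered 1 it was -0.0337 for Ptpn22 and -0.0235 for Csk. Ptprc, Ptpn6, Inpp5d, Cbl and Cblb stayed positive in all 15 refits. Scaling by RLE or by library totals alone (the latter added after seeing the data) left the 2 members with non-overlapping groups as they were. With the longest transcript as length, levels were 714 CPM per kb for Ptprc, 135 for Ptpn22, 87.5 for Cblb, 44.8 for Csk and 36.0 for Inpp5d. With the replicate number as a block, 0 genes were called and 0 members; libraries with the same number did not deviate together (r over genes of -0.03, -0.01 and -0.03 for numbers 1 to 3), so the numbers were not taken as pairs. Every member had 392 reads or more in each library.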
